A study of Mus musculus with 12 samples.

Results

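Hypoxia-inducible factors switch on far more than glycolysis. The 9 genes Ankrd37, Ndrg1, Adm, Bhlhe40, Bhlhe41, Mxi1, Ddit4, Edn1 and Stc1 are well-known hypoxia targets that do not encode enzymes or transporters of glucose metabolism, and the question was which of them differed in a kidney that carries an active HIF1α transgene. They were picked by gene symbol as recognised targets of the pathway, with no threshold on their values, but with earlier results of these data known. All 9 were found among the 37681 genes of the count table, and all 9 were among the 19399 genes with enough reads to be tested.

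RNA from the outer kidney cortex was sequenced from 3 TRACK mice (genotype TRACK/gamma-HIF1alphaM3 TG+) and 3 wild type littermates (TG-), all untreated C57BL/6 males 18 months old, with 1 library from each of the 2 kidneys of a mouse. The transgene of TRACK mice encodes a mutated HIF1α that is always active and is expressed in the proximal tubule, while the samples hold all cell types of the cortex. TG- mice carry no transgene. The TG+ mice are numbered 43-29, 43-49 and 43-75 and the TG- mice 43-26, 43-50 and 43-76, and values below are given in that order.

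HIF1α pairs with a constant partner, ARNT, and the dimer binds short DNA sites that contain ACGTG or GCGTG. In normal oxygen, prolyl hydroxylases mark HIF1α for removal through the VHL protein, and a mutant that escapes this mark stays active. The genes followed here act downstream in different ways: Adm, Edn1 and Stc1 encode secreted peptides or hormones, Ddit4 and Ndrg1 encode stress proteins of the cell body, Bhlhe40, Bhlhe41 and Mxi1 encode repressors of transcription, and Ankrd37 encodes a small ankyrin-repeat protein.

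The counts of a mouse summed to between 48052131 and 53275152 reads for TG+ and to between 50570271 and 60506785 for TG-. Levels are normalized CPM, the reads of a gene scaled to the TMM-adjusted library size of its mouse, with both kidneys summed. The limits of the study were applied to call a gene, namely more than a 2-fold change in either direction and an adjusted p under 0.01, here by edgeR's quasi-likelihood test across all 19399 genes. Proximal tubule markers were read in every sample, with a summed level of 40838 to 42819 CPM in TG+ and 50046 to 54510 CPM in TG- mice. The most abundant of them, Kap, gave 14272.5 to 17366 CPM of the sum in TG+ and 16790.3 to 17476 CPM in TG- mice. In bulk cortex, fewer cells of a type and less RNA per cell cannot be told apart.

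Ankrd37, Ddit4 and Adm rose in TG+ cortex, by 33.8-fold, 6.31-fold and 2.99-fold, and the other 6 genes did not pass the limits. Thus 3 of the 9 genes were called higher, against 3.77% of all genes tested, and 0 of 9 were called lower, against 0.211%. Bhlhe40 changed by 1.80-fold with an adjusted p of 4.85e-04 from edgeR's test, and so passed on the p alone. At an adjusted p below 0.05 with no fold limit, 4 of the 9 were higher, against 15.4% of all genes, and 0 of 9 lower, against 10.9%. That looser count moved with the samples used. It was 6 without mouse 43-26 or without mouse 43-50, and 9 when each kidney was taken as a sample of its own, which counts a mouse more than once. All 9 log2 fold changes lay above 0, as did 51.8% of all genes. Their median was 0.67, beside 0.01 over all genes tested.

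**Figure D1:**
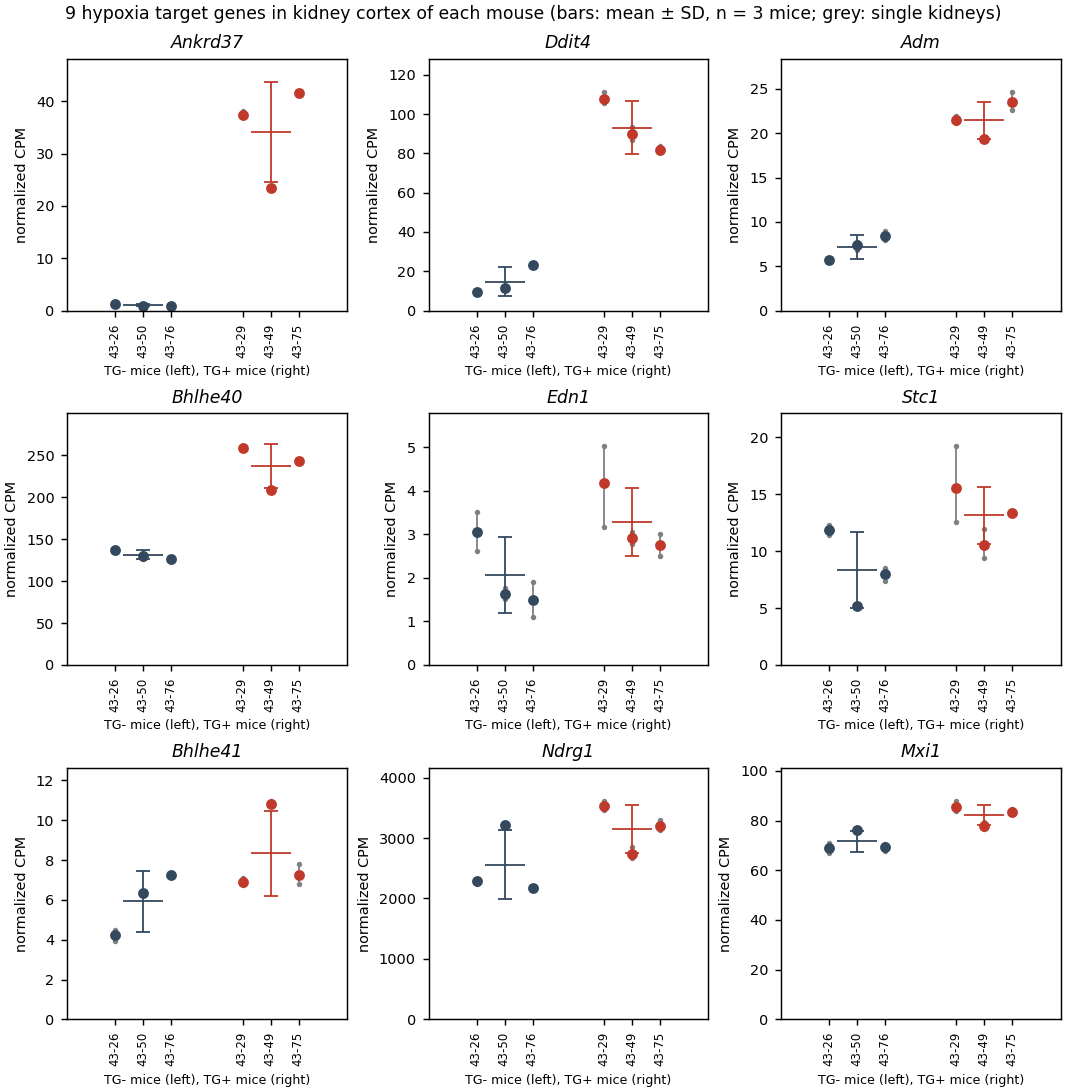
Normalized CPM (y axis, from 0) of the 9 genes in each mouse (x axis, TG- in dark blue, TG+ in red), with the mean ± SD of 3 mice and, in grey, the values of the single kidneys. TG+ mice stand above TG- mice without overlap for Ankrd37, Ddit4, Adm, Bhlhe40 and, by a ratio of only 1.02, Mxi1, and the groups overlap for Edn1, Stc1, Bhlhe41 and Ndrg1.

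Ankrd37 (ENSMUSG00000050914, chr8:45996902-46005707, minus strand, in GENCODE M21 on GRCm38) gave the largest difference. It stood at 37.5, 23.4 and 41.5 CPM in the TG+ mice and at 1.25, 0.893 and 0.880 CPM in the TG- mice. The lowest TG+ mouse was 18.7 times the highest TG- mouse. The log2 fold change was 5.08 (SE 0.27, adjusted p = 2.15e-05 by edgeR), with a 95% confidence interval of 22.1 to 51.8 on the fold scale. By size of its log2 fold change it ranked number 56 of the 19399 genes. The TG- values rest on 43 to 64 reads per mouse and the TG+ values on 1326 to 2086 reads.

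The gene span of Ankrd37 overlaps Lrp2bp and Ufsp2, both on the opposite strand. Lrp2bp rose almost as much, from 0.529 ± 0.0376 to 16.4 ± 4.22 CPM (SD, n = 3 mice), a log2 fold change of 4.95. Ufsp2 stood at 33.7 ± 1.82 CPM in TG+ and 33.96 ± 1.02 CPM in TG- mice, a log2 fold change of -0.01 whose sign changed with the scaling. How strand was handled is not given in the sources used here, so reads of Ankrd37 and Lrp2bp where they overlap cannot be told apart.

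Ddit4 (ENSMUSG00000020108, chr10:59949669-59951834, minus strand) encodes REDD1, which restrains the growth kinase mTORC1 through the TSC complex. Its level was 108, 89.6 and 81.9 CPM in TG+ mice and 9.63, 11.7 and 23.0 CPM in TG- mice. The groups did not overlap, and the lowest TG+ mouse was 3.56 times the highest TG- mouse, 43-76, which stood apart from the other TG- mice. Between genotypes its log2 fold change was 2.66 (SE 0.30, adjusted p = 8.46e-04 by edgeR). It was 3.12 without mouse 43-76. Ddit4 varied more between TG- mice (coefficient of variation 48.6%) than any other of the 9 genes. Between TG+ mice its coefficient of variation was 14.3%. The log2 ratio of Ankrd37 to Ddit4 within a mouse was higher by 2.31 in TG+ mice, with no overlap (exact permutation p = 0.1, the smallest possible).

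Adm (ENSMUSG00000030790, chr7:110627661-110629820, plus strand) encodes adrenomedullin, a peptide that widens blood vessels. It was measured at 21.5, 19.3 and 23.6 CPM in TG+ mice and at 5.69, 7.35 and 8.45 CPM in TG- mice. The groups did not overlap, the lowest TG+ mouse being 2.29 times the highest TG- mouse. This amounted to a log2 fold change of 1.58 (SE 0.14, adjusted p = 3.12e-04 by edgeR).

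The DNA in front of these genes is shown because the active protein is a DNA-binding factor. The 4 windows printed are examples, picked for genes that differ in response. The sequences are RefSeq promoter windows on GRCm38.p6, up to 250 bases before the annotated start, 5′ to 3′ on the strand of the gene, without bases that GENCODE places in an exon. Capitals mark ACGTG or GCGTG on either strand (read as CACGT or CACGC on the other strand, with overlapping matches joined). Ankrd37, Ddit4 and Adm were called higher, and Edn1 was not called.
Ankrd37, chr8:45999868-46000100, minus strand: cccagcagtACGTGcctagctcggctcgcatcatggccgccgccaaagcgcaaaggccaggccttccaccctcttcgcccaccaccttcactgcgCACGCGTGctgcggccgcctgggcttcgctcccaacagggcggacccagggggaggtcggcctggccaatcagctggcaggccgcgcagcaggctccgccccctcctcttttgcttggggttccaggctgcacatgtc
Ddit4, chr10:59951835-59952020, minus strand: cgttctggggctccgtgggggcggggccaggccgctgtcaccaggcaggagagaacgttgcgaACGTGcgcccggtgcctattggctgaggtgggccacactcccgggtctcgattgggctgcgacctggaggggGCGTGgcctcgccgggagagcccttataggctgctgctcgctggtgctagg
Adm, chr7:110627407-110627656, plus strand: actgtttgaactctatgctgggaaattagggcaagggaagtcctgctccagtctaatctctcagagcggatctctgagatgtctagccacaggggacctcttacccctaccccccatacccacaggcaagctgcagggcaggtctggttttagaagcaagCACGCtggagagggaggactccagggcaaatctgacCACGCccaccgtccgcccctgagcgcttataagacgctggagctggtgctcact
Edn1, chr13:42301226-42301475, plus strand: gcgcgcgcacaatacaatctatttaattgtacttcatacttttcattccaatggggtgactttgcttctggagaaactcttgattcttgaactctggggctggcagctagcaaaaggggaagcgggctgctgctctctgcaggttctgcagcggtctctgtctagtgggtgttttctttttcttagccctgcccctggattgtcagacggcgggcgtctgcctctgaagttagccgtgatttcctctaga

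Over the whole window of 250 bases, Ankrd37 held 4 such sites, 1 of them in the last bases before its start, which are not shown and touch exon sequence. The rest of the Ankrd37 window lies in an intron of a longer GENCODE transcript of the gene. The Ankrd37 sites that begin 155 and 152 bases before the start overlap in 1 CACGCGTG, which was counted on each strand. Ddit4 held 2 sites, which begin 187 and 115 bases before the start, and Adm held 2, which begin 90 and 54 bases before it. Edn1 held 0, which says only that these letters are absent from this window. Bhlhe41, which was not called, held 4, of which 2 lie in bases that GENCODE places in an exon, and the other 2 are 1 CACGTG, which reads as ACGTG on both strands and was counted on each. Mxi1 has 3 annotated starts in the table, and 2 of the 3 windows held a site, 1 of them in exon sequence. Among relatives described further on that were called higher, the window of Adm2 held 0 sites and that of Stc2 held 2.

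Among all 32851 windows, 38.6% held ACGTG or GCGTG on either strand, and 6.6% held 3 or more sites. Of the 27025 genes, 41.5% had a site in at least 1 of their windows. Promoter entries were matched for 6 of the 9 genes, and 5 of the 6 had a site in at least 1 window (6 of 8 windows). For Ndrg1, Bhlhe40 and Stc1 no entry was matched by symbol. A match describes the letters of the window and not binding, which was not measured here.

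Among the secreted factors, adrenomedullin was the only one of the 3 past the limits. Endothelin-1 is a peptide that narrows blood vessels, and its gene Edn1 (ENSMUSG00000021367, chr13:42301476-42307990, plus strand) was expressed at 4.16, 2.91 and 2.75 CPM in TG+ mice and at 3.06, 1.63 and 1.49 CPM in TG- mice. The TG- mouse 43-26 lay above the TG+ mice 43-49 and 43-75, so the groups overlapped. The log2 fold change was 0.67 (95% confidence interval -0.02 to 1.35, adjusted p = 0.136 by edgeR). On the fold scale the interval ran to 2.55 and overlapped that of Adm, which ran from 2.37 to 3.78. Edn1 rested on 73 to 206 reads per mouse.

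Stanniocalcin 1 is a secreted glycoprotein hormone. Its gene Stc1 (ENSMUSG00000014813, chr14:69029238-69041804, plus strand) was expressed at 15.5, 10.6 and 13.4 CPM in TG+ mice and at 11.9, 5.20 and 7.96 CPM in TG- mice. Again the TG- mouse 43-26 reached into the TG+ range, above mouse 43-49. For Stc1 the log2 fold change was 0.66 (95% confidence interval 0.02 to 1.30, adjusted p = 0.119 by edgeR). Mouse 43-26 weighed on both genes. Without it the log2 fold change was 1.00 for Stc1 (adjusted p = 0.0218) and 1.06 for Edn1 (adjusted p = 0.0184), still above the adjusted p of 0.01. In each pair of mice, by the order in which the deposited table is named, the TG+ mouse stood higher for both genes. A block for these pairs gave an adjusted p by edgeR of 0.00887 for Stc1 and 0.0144 for Edn1. No label gives the pairs, and the main fit does not use them.

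Stc1 and Edn1 also differed most between the 2 kidneys of a mouse. The larger kidney value was 1.75 times the smaller for Edn1 in mouse 43-76 and 1.53 times for Stc1 in mouse 43-29. For each of the other 7 genes that ratio was at most 1.19 in any mouse.

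Of the stress proteins other than Ddit4, Ndrg1 (ENSMUSG00000005125, chr15:66929318-66969640, minus strand) encodes a cytoplasmic protein that responds to stress and differentiation. Its level was 3525, 2736 and 3201 CPM in TG+ mice and 2285, 3213 and 2179 CPM in TG- mice. The TG- mouse 43-50 exceeded the TG+ mice 43-49 and 43-75. For Ndrg1 the log2 fold change was 0.30 (95% confidence interval -0.06 to 0.66, adjusted p = 0.196 by edgeR), so a doubling lies outside the interval. It was 0.50 without mouse 43-50 (adjusted p = 0.0215). The span of Ndrg1 overlaps the antisense gene Gm17035, at 633 ± 74.1 CPM in TG+ and 521 ± 122 CPM in TG- mice, a log2 fold change of 0.28. With strand handling not given, reads of Ndrg1 and Gm17035 where they overlap cannot be told apart.

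The repressor Bhlhe40 (ENSMUSG00000030103, chr6:108660629-108666925, plus strand), also called DEC1, stood at 259, 208 and 243 CPM in TG+ mice and at 137, 130 and 126 CPM in TG- mice. The groups were well apart, with the lowest TG+ mouse at 1.52 times the highest TG- mouse, and the TG- mice varied by only 4.19%. Its log2 fold change was 0.85 (SE 0.09, 95% confidence interval 0.65 to 1.05), an increase that was precise but below 2-fold. The antisense gene 0610040F04Rik overlaps it and had a log2 fold change of 0.62 (adjusted p = 0.00352 by edgeR). Here too, overlapping reads of the genes cannot be told apart.

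Bhlhe41 (ENSMUSG00000030256, chr6:145858243-145865558, minus strand), or DEC2, is its closest relative. It stood at 6.91, 10.8 and 7.27 CPM in TG+ mice and at 4.21, 6.34 and 7.22 CPM in TG- mice. Mouse 43-49 was well above the TG- range, 43-75 barely so, and 43-29 lay below the TG- mouse 43-76. The log2 fold change was 0.49 (95% confidence interval -0.05 to 1.03, adjusted p = 0.158 by edgeR), and 0.25 without mouse 43-49. The ratio of Bhlhe40 to Bhlhe41 within a mouse did not separate the groups. It differed by 0.35 on the log2 scale (2-sided exact permutation test, 20 ways to split the 6 mice evenly, p = 0.4).

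Mxi1 (ENSMUSG00000025025, chr19:53310518-53375810, plus strand) encodes a MAX partner that opposes MYC. Its level was 85.5, 77.7 and 83.5 CPM in TG+ mice and 69.1, 76.4 and 69.3 CPM in TG- mice. The lowest TG+ mouse was only 1.02 times the highest TG- mouse. This gave a log2 fold change of 0.20 (SE 0.06, 95% confidence interval 0.05 to 0.35, adjusted p = 0.0534 by edgeR), the smallest of the 9. When libraries were scaled by size alone it was 0.32 (adjusted p = 0.0047 by edgeR), still far below 2-fold.

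In all, 5 of the 9 genes had every TG+ mouse above every TG- mouse, against 23.4% of all genes tested, and 0 had every TG+ mouse below every TG- mouse, against 20.8%. For these 5 the exact permutation test gave a 2-sided p of 0.1, the smallest that 3 against 3 mice allow, and for the other 4 it gave 0.2 or 0.3.

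**Figure D2:**
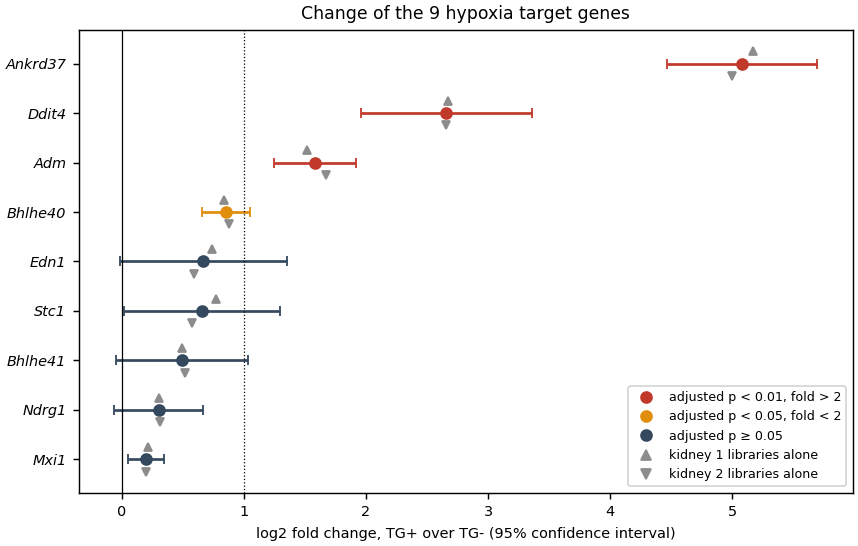
Log2 fold change, TG+ over TG- (x axis), of the 9 genes with 95% confidence intervals from both kidneys summed (circles) and the values from kidney 1 or kidney 2 alone (grey triangles). The intervals of Ankrd37, Ddit4 and Adm lie above the dotted line at a doubling, that of Bhlhe40 crosses it at its upper end of 1.05, and those of Mxi1 and Ndrg1 stay below it.

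Each kidney alone gave the same 3 calls. In kidney 1 the log2 fold changes were 5.17 for Ankrd37, 2.68 for Ddit4 and 1.52 for Adm, and in kidney 2 they were 4.995, 2.66 and 1.67. Genes called higher made up 3.35% of those tested in kidney 1 and 3.35% in kidney 2. The other 6 genes were not called in either kidney. Kidneys of the same mice are not independent samples of the genotype.

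The genes sat at very different levels, which can be compared between genes only per length, as RPKM. In TG- cortex Ndrg1 was the most abundant, at 195 ± 43.1 RPKM (SD, n = 3 mice), followed by Bhlhe40 at 33.5 ± 1.40 RPKM. Next came Ddit4 at 8.91 ± 4.31, Adm at 5.24 ± 1.01 and Mxi1 at 4.83 ± 0.272 RPKM, whose ranges overlapped each with the next. Stc1 stood at 2.02 ± 0.808 RPKM, and Edn1 at 0.911 ± 0.376 and Bhlhe41 at 0.877 ± 0.227 RPKM were not distinct from each other or, for Edn1, from Stc1. Ankrd37 was lowest, at 0.279 ± 0.0557 RPKM.

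In TG+ cortex the first 4 places by RPKM were the same, and Ankrd37 passed the 4 genes that had stood below them. Ndrg1 remained first at 234 ± 29.0 RPKM, whereas Ddit4 at 54.5 ± 7.64 RPKM overlapped Bhlhe40 at 59.1 ± 6.41 RPKM. Ankrd37 moved from the ninth to the fifth place, at 8.87 ± 2.49 RPKM, above Mxi1 at 5.42 ± 0.263 RPKM without overlap. The most abundant gene was thus among those not called, and the least abundant showed the largest change.

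The peptides act through partners that were read from lists of pathway genes. Of the 7 other genes of the adrenomedullin system, 1 was called higher, 0 lower and 5 were higher at an adjusted p below 0.05. Adm2, a related peptide that shares the receptor, was called. It stood at 13.8, 19.9 and 13.0 CPM in TG+ mice and at 3.08, 3.48 and 2.68 CPM in TG- mice, a log2 fold change of 2.33 (SE 0.19, adjusted p = 1.62e-04 by edgeR). The log2 ratio of Adm to Adm2 within a mouse differed by -0.72 (TG+ minus TG-), with no overlap between groups (exact permutation p = 0.1, the smallest possible, and 0.16 after adjustment over 8 such ratios).

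The shared receptor gene Calcrl had a log2 fold change of 0.72 (adjusted p = 0.00653 by edgeR), and Ramp3, which turns it into an adrenomedullin receptor, of 0.64 (adjusted p = 0.0129). For Ramp1, the accessory protein of the calcitonin gene-related peptide receptor, the log2 fold change was 0.76 (adjusted p = 0.061). Ramp2, the other adrenomedullin partner, had a log2 fold change of -0.01, a sign that changed with the scaling. Pam, which amidates the peptide, changed by 0.30 and the scavenger receptor Ackr3 by 0.55 on the log2 scale, both at an adjusted p below 0.05.

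In the endothelin system 1 of the 6 other genes tested was called higher, 0 were lower, and 3 were higher at an adjusted p below 0.05. The called gene was the receptor Ednrb, which stood at 72.4, 40.1 and 74.3 CPM in TG+ mice and at 30.1, 19.4 and 27.3 CPM in TG- mice, a log2 fold change of 1.28 (SE 0.25, adjusted p = 0.0085 by edgeR). This call was lost without any one of the mice 43-29, 43-75, 43-26, 43-50 and 43-76 and in kidney 1 alone, where adjusted p lay between 0.0154 and 0.0326 and log2 fold changes between 1.11 and 1.41. The other receptor gene, Ednra, rose by less than 2-fold, with a log2 fold change of 0.92 (adjusted p = 0.00157 by edgeR). It passed the limits in kidney 2 alone (1.01) and with library size as the only scaling (1.04). The ratio of Ednrb to Ednra overlapped between groups (exact permutation p = 0.5). Among the enzymes, Mme, which degrades endothelin, changed by 0.33 (adjusted p = 0.0122), whereas Ece1, which releases the active peptide, had a log2 fold change of -0.19 (adjusted p = 0.0984). Edn3 had a log2 fold change of 0.20 (adjusted p = 0.203), and Edn2 had 0 reads.

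Endothelial markers were read beside these genes. All 10 of 10 were higher at an adjusted p below 0.05, against 15.4% of all genes. At the limits of the study 0 of 10 were called, and their median log2 fold change was 0.64. Their summed level was 771 to 834 CPM in TG+ and 455 to 595 CPM in TG- mice. Each marker passed the filter on low counts. The part of these cells in the values of Adm, Edn1 and their receptors was not tested.

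Stanniocalcin 2, the other hormone of this family, was called higher. Its gene Stc2 stood at 39.8, 42.8 and 44.8 CPM in TG+ mice and at 3.10, 2.63 and 2.74 CPM in TG- mice, a log2 fold change of 3.91 (SE 0.09, adjusted p = 1.13e-06 by edgeR). The log2 ratio of Stc2 to Stc1 within a mouse was 1.36, 2.02 and 1.74 in TG+ mice and -1.94, -0.99 and -1.54 in TG- mice. It thus differed by 3.19 with no overlap (exact permutation p = 0.1, the smallest possible, and 0.16 adjusted over 8 ratios). The reads of Stc1 exceeded those of Stc2 in every TG- mouse, and those of Stc2 exceeded Stc1 in every TG+ mouse.

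**Figure D3:**
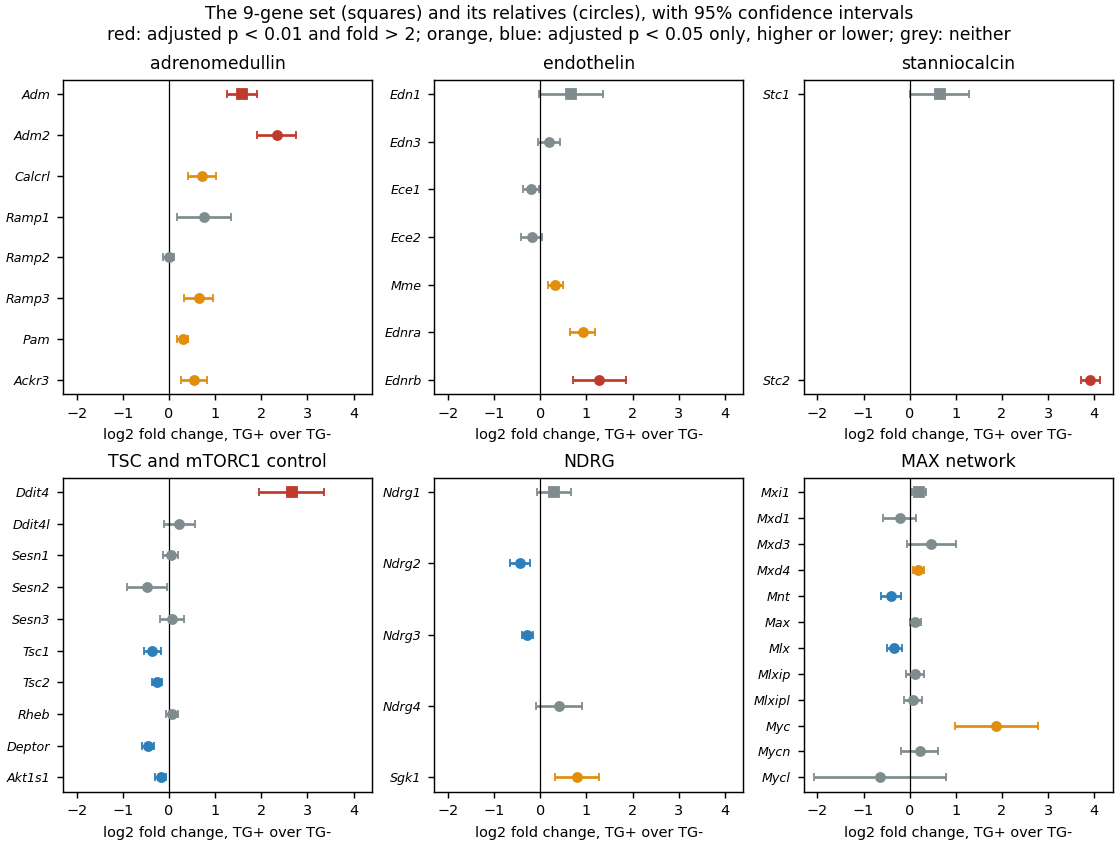
Log2 fold change, TG+ over TG- (x axis), with 95% confidence intervals, of the 9-gene set (squares) and of receptors, partners and family members (circles) in 6 groups. Red marks genes called higher, orange and blue mark genes higher or lower at an adjusted p below 0.05 only, and grey marks neither. Stc2, Adm2 and Ednrb are called beside Stc1, Adm and Edn1, and Ddit4 is the only red point of its group.

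Among the genes of TSC and mTORC1 control other than Ddit4, 0 of 9 were called in either direction, 0 were higher and 4 lower at an adjusted p below 0.05, where 10.9% of all genes were lower. The 4 were Deptor (log2 fold change -0.45), Tsc1 (-0.36), Tsc2 (-0.27) and Akt1s1 (-0.18), each of which also restrains mTORC1 or belongs to its complexes. Ddit4l, the closest relative of Ddit4, stood at 11.2 and 9.59 CPM in the TG+ and TG- groups, a log2 fold change of 0.22 (adjusted p = 0.300 by edgeR). The log2 ratio of Ddit4 to Ddit4l was higher by 2.53 in TG+ mice with no overlap (exact permutation p = 0.1, the smallest possible). Sesn2, another stress-induced brake, had a log2 fold change of -0.47 (adjusted p = 0.0986).

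Ddit4 is also known as a target of the stress factor ATF4 and of glucocorticoids. Of 10 other ATF4 targets, 6 were called higher, against 3.77% of all genes, and 0 lower. Their median log2 fold change was 1.68. The 6 were Trib3 (3.90), Chac1 (2.58), Asns (2.52), Atf5 (2.36), Atf3 (2.18) and Ddit3 (1.18). Those not called were Ppp1r15a (0.52), Vldlr (0.31), Psat1 (0.08) and Sesn2 (-0.47). Of 10 glucocorticoid-responsive genes, 2 were called higher, also against 3.77%, with a median of 0.38. Of 12 tubule injury markers, 3 were called higher, against 3.77% of all genes, with a median of 0.95. Their summed level was 1077 to 1264 CPM in TG+ and 867 to 1084 CPM in TG- mice. Spp1 gave 602 to 689 CPM of it in TG+ and 527 to 659 CPM in TG- mice. The other 11 summed to 475 to 575 CPM and 340 to 425 CPM, a ratio of 1.36 between the group means. The part of these lists in the value of Ddit4 was not tested.

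Of the 4 other genes listed with Ndrg1, 0 were called, and at an adjusted p below 0.05 1 was higher and 2 lower. Ndrg2 and Ndrg3, 2 family members, were lower in TG+ mice, with log2 fold changes of -0.44 (adjusted p = 0.0114 by edgeR) and -0.28 (adjusted p = 0.0069). Ndrg4 stood at 0.779 and 0.587 CPM, with a log2 fold change of 0.41 (adjusted p = 0.196). The log2 ratio of Ndrg1 to Ndrg2 was higher by 0.75 in TG+ mice with no overlap (exact permutation p = 0.1, the smallest possible). Sgk1, a kinase that phosphorylates NDRG1, changed by 0.80 on the log2 scale (adjusted p = 0.0248 by edgeR).

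In the MAX network around Mxi1, 0 of the 11 other genes were called. At an adjusted p below 0.05, 2 were higher and 2 lower, shares near those of all genes (15.4% and 10.9%). Myc stood at 35.5, 25.4 and 33.8 CPM in TG+ mice and at 14.0, 7.91 and 3.77 CPM in TG- mice, a log2 fold change of 1.88 whose adjusted p of 0.0108 by edgeR fell just outside the limit. Mxd4 changed by 0.18, Mnt by -0.40 and Mlx by -0.33 on the log2 scale. The count ratio of Mxi1 to Max, its partner, overlapped between groups (difference 0.08 on the log2 scale, exact permutation p = 0.4).

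Bhlhe40 and Bhlhe41 feed into the circadian clock, and of the 17 other clock genes listed 0 were called in either direction. At an adjusted p below 0.05, 0 were higher and 2 were lower, Tef with a log2 fold change of -0.48 and Nr1d2 with -0.34, a share near the 10.9% of all genes. The hour of collection is not given in the labels, and its part in the values of Bhlhe40 and Bhlhe41 was not tested.

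The 9 genes were set beside other hypoxia targets, in lists also chosen with earlier results of these data known. Of 40 other targets outside metabolism, 16 were called higher and 0 lower, with a median log2 fold change of 0.72. The largest were Egln3 (4.93), Plod2 (3.40), Fam162a (3.10), Ero1l (2.93), Loxl2 (2.27) and P4ha2 (2.26), which encode a HIF hydroxylase, collagen-modifying enzymes, a mitochondrial protein and an oxidase of protein folding. At an adjusted p below 0.05 without a fold limit, 26 were higher and 1, Klhl24 (-0.38), was lower. Of 22 metabolic targets, 15 were called higher, with a median of 2.20. Thus 33.3% of the 9 genes, 40% of the other targets outside metabolism and 68.2% of the metabolic targets were called higher, shares that were not tested against each other.

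**Figure D4:**
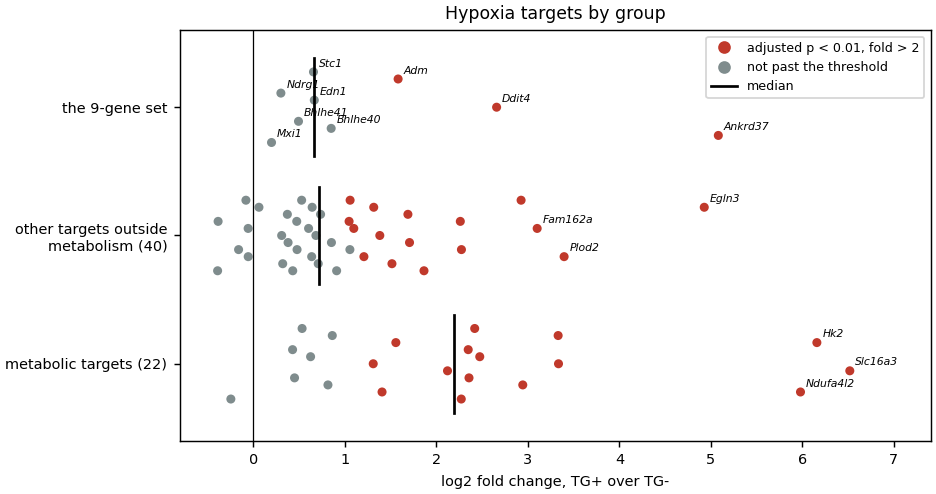
Log2 fold change, TG+ over TG- (x axis), of each gene in 3 groups of hypoxia targets, with called genes in red, others in grey and the group median as a black line; the vertical scatter within a group has no meaning. The medians are 0.67 for the 9 genes, 0.72 for 40 other targets outside metabolism and 2.20 for 22 metabolic targets, and Ankrd37 at 5.08 lies beside Egln3 at 4.93.

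Hif1a itself stood at 91.7, 109 and 86.3 CPM in TG+ mice and at 107, 103 and 103 CPM in TG- mice, a log2 fold change of -0.12 (adjusted p = 0.343 by edgeR) that became 0.000529 when libraries were scaled by size alone. Whether this row also holds transgene reads is not given in the sources used here. Epas1, which encodes HIF2α, had a log2 fold change of 0.37 (adjusted p = 0.00742 by edgeR), Hif3a of 3.02 and Egln1 of 0.91.

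Marker lists of other cell types differed in their counts. Of 20 proximal tubule markers, 0 were called higher and 1 lower, Slc22a6, which was no longer called with library size as the only scaling (log2 fold change -0.97). At an adjusted p below 0.05, 11 of the 20 were lower, against 10.9% of all genes, and 0 higher, and the median log2 fold change was -0.34. Of 14 immune markers, 6 were called higher, against 3.77% of all genes, with a median of 1.02. Their summed level was 875 to 1339 CPM in TG+ and 282 to 328 CPM in TG- mice. Most of that sum was Igkc, an immunoglobulin light chain gene, at 714 to 1179 CPM in TG+ and 176 to 230 CPM in TG- mice. The other 13 summed to 160.0 to 163 CPM and 92.5 to 107 CPM, a ratio of 1.63 between the group means. Of 10 stromal markers, 1, Fn1, was called higher, with a median of 0.69. Podocyte markers had a median of 0.27 and markers of the loop, distal tubule and collecting duct of 0.05, with 0 called in either list. The part of these cells in the values of the 9 genes was not tested.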

How the data were processed

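RNA was prepared from a slice of outer kidney cortex with a TruSeq RNA kit and sequenced as 51-bp single-end reads, 12 libraries from 6 mice. The authors deposited raw read counts per Ensembl gene and library, and RPKM values proportional to the count plus 1 for 100% of genes (within 1%). Per the methods the authors used mainly the Tuxedo tools, and the submitters' processing notes name mm9. Annotation release, counting program and strand handling are not given in the sources used here. The authors' own fold changes, p-values and q-values and 12 columns of log2 RPKM were not used.

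Counts of both kidneys were summed per mouse, filtered with filterByExpr, scaled by TMM and fitted in edgeR 4.0.16 (with limma 3.58.1 under R 4.3.3) by genotype alone, using its quasi-likelihood F test and Benjamini-Hochberg adjustment over 19399 genes. SE is the log2 fold change over the root of F. Single values were compared with an exact permutation test over 20 assignments. The procedure was tested on simulated data. RPKM values are means of both kidneys. The mouse was the replicate, so edgeR's p-values rest on the spread between 3 mice a group, which edgeR moderates toward that of all genes.

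Symbols and positions came from GENCODE M21 (GRCm38, not the build of the authors), matched by identifier for 32642 of 37681 genes (86.6%), and promoters from RefSeq (GRCm38.p6). The genes and lists were chosen with earlier results of these data known. Named besides the 9 genes are their relatives and, from each list, at most 6 genes past the limits or the extremes. Genes named for a count of 1 or 2, the genes overlapping a member and the genes lower in TG+ by p alone were chosen after their values were seen.

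Pairs of mice follow the order in which the deposited table is named (43-29 with 43-26, 43-49 with 43-50, 43-75 with 43-76). Deviations from the group means correlated at r = 0.31, 0.28 and -0.06 over genes, so the mice were not treated as pairs. Alternatives were DESeq2 (1.42.0), no filter, single kidneys, kidneys as samples, a pair block, leaving out each mouse, scaling by library size or upper quartile, centring and other limits. Counts of separated genes, of the lists of targets and of the 9 genes at an adjusted p below 0.05 under these were added after seeing the data. Promoters, ratios and plots were made in Python 3.11.15 (pandas 2.3.3, numpy 2.4.6, scipy 1.17.1, matplotlib 3.10.9).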

Additional observations from a re-analysis of the deposited data

Results flagged for a closer look

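Among the 18 sets of 6 libraries checked (9 genes in each genotype), 1 held a library far from the others. Kidney 2 of the TG+ mouse 43-29 had 5.02 CPM of Edn1, whereas the next TG+ library had 3.16 CPM and the lowest 2.51 CPM, so the gap was 0.739 of the whole range, more than Dixon's 95% limit for 6 libraries. Chance gives such a gap in about 1 in 20 sets. Libraries of a mouse are not independent. Without mouse 43-29 the log2 fold change of Edn1 was 0.45 in place of 0.67, and it was not called either way.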

How the results depend on the processing

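The 9 genes kept their sign and their side of the limits of the study in all 135 alternative values, and 3 were called under each alternative (4 without a fold limit at an adjusted p of 0.05 or 0.01). Leaving out a mouse gave log2 fold changes of 4.90 to 5.29 for Ankrd37, 2.43 to 3.12 for Ddit4, 1.44 to 1.71 for Adm, 0.40 to 1.00 for Stc1 and 0.45 to 1.06 for Edn1. Of all genes, 732 were called higher and 41 lower. Leaving out a mouse gave 469 (without 43-76) to 633 higher, an adjusted p of 0.05 without a fold limit 2982 higher and 2105 lower, and 0.01 without a fold limit 1534 and 824. Scaling by library size alone gave 927 and 22, and moved the median of all genes by 0.12 (log2). Of the 40 other targets outside metabolism, 26 were higher at an adjusted p of 0.05 without a fold limit, and 11 to 16 were called with a mouse left out. A replicate block for the pairs gave 779 higher and 46 lower genes and the same 3 of 9, with an adjusted p by edgeR of 0.00887 for Stc1 and 0.0144 for Edn1. At the limits of the study it changed no call of the 9 genes, and Myc was called as well. At an adjusted p below 0.05 without a fold limit, 6 of the 9 genes were higher with the block, Edn1 and Stc1 in addition, and under the other alternatives that count was 4 to 6, or 9 with kidneys as samples (DESeq2 and library size alone 5, a mouse left out 4 to 6). By deviations over genes, 2 of 3 TG+ mice correlated best with the mouse of their pair. DESeq2 called 820 and 48. Reversed signs, all near 0, were Ramp2 (6.86e-05 with kidneys as samples, 0.0273 in kidney 2, 0.112 by library size, -0.0379 to 0.0197 with a mouse left out), Ufsp2 (0.0648 in kidney 2, 0.107 by library size, -0.0660 to 0.0194 with a mouse left out) and Hif1a (0.000529 by library size). Genes named above that gained a call were Myc, just outside the limit, under 7 alternatives, Ednra in kidney 2 (1.01) and by library size (1.04), Egln1 by library size (1.03) and Sgk1 without 43-75 (1.02). The causes were not tested. Having 3 mice a group and, for Edn1 and Ankrd37 in TG- mice, under 160 reads a mouse limit what can be resolved.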
